A study of Homo sapiens with 12 samples.

Results

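The genes described here are 58 protein-coding genes of the short arm of human chromosome 8, from ERICH1 near the end of the arm to WRN. They come from 60 listed symbols, chosen by their RNA level, which was lower in a NOTCH1-targeted endothelial line than in its control. They were kept where the mean over 12 libraries was at least 1 TPM. TPM is transcript abundance scaled to a common total per library. All 60 symbols were among the 35587 in the table, and TUSC3 and CSGALNACT1, with means of 0.524 and 0.176 TPM, did not meet the threshold. The members nearest to it were LONRF1 (1.76 TPM), PTK2B (1.77 TPM) and MSRA (2.44 TPM), and the nearest genes of the arm outside it were MTMR7 (0.858 TPM) and TUSC3. Because the contrast between the NOTCH1-targeted and control lines chose the members, every value of it for them is a description. For tests, a gene needed 1 TPM or more in 2 or more libraries. All 58 genes met that, as did 13299 symbols in all.

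The cells were TeloHAEC, human aortic endothelial cells immortalised with telomerase. Per the labels, Cas9 and a guide RNA targeted NOTCH1 in the NKO line and TSPAN14 in the TKO line, and the NT line was the control. TSPAN14 is a tetraspanin that binds ADAM10, the protease that cleaves ligand-bound Notch receptors. The labels do not say whether a line is 1 clone or a pool. Each line was plated on plastic coated at 2.5 mg/mL with DLL4, a Notch ligand, or with IgG, and polyadenylated RNA was taken after 24 hours. The 6 groups (NKO on DLL4, NKO on IgG, TKO on DLL4, TKO on IgG, NT on DLL4 and NT on IgG) held 2 libraries each, called biological replicates in the labels. Nothing more is said of separate cultures, so p-values measure the spread between these libraries.

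The short arm of chromosome 8 carries genes of many unrelated pathways. Among those listed are matrix enzymes such as LOXL2 and BMP1, the lysosomal enzymes CTSB and ASAH1, cytoskeletal and adhesion proteins such as PDLIM2 and SORBS3, phosphatase subunits such as PPP2CB and PPP2R2A, and proteins of mitosis and DNA repair such as ESCO2 and WRN. The segment is best known from carcinomas, in which it is often lost, and DLC1 and TUSC3 were first described as candidate tumour suppressors there.

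The targeted genes were both still transcribed. NOTCH1 was at 16.5 and 19.5 TPM in NKO cells on DLL4 and 19.2 and 15.6 TPM on IgG, against 31.5 and 24.7 TPM on DLL4 and 17.8 and 19.6 TPM on IgG in NT cells. It was thus separated from NT on DLL4, at 64.2% of the NT mean (limma adjusted p = 0.0225), and overlapped on IgG. TSPAN14 stood at 62.3% and 67.3% of the NT mean in TKO cells. All 10 endothelial markers were at 1 TPM or more in every library, with sums of 2403 to 2751 TPM in NKO, 2473 to 2796 TPM in TKO and 2428 to 2726 TPM in NT libraries. The 6 leukocyte markers summed to 0.805 to 2.01 TPM in NKO, 3.15 to 10.5 TPM in TKO and 0.768 to 1.13 TPM in NT libraries, with PTPRC, CD3E, CD79A, LYZ and ITGAM under 1 TPM throughout. The 7 smooth muscle and fibroblast markers summed to 11.1 to 15.7 TPM in NKO, 21.6 to 32.5 TPM in TKO and 16.3 to 25.2 TPM in NT libraries, with MYH11, DES, DCN and LUM under 1 TPM. KRT8 and KRT18 carried an epithelial sum of 802 to 1194 TPM in NKO, 501 to 633 TPM in TKO and 542 to 798 TPM in NT libraries, while EPCAM and CDH1 stayed under 1 TPM. The part of these differences in the results was not tested.

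The 58 genes were at a median of 69.0% of the NT level in NKO cells on DLL4 and 72.0% on IgG, where all genes tested were at 104.5% and 105.2%. In TKO cells the same genes were at medians of 99.8% and 103.2%. In bulk RNA, less RNA per cell and fewer cells that carry it cannot be told apart. Over both coatings, the quartiles of the 58 genes were 64.3% and 79.2% of NT in NKO cells and 91.0% and 116.4% of NT in TKO cells. Both NKO libraries were below both NT libraries in 49 genes on DLL4, where 25.0% of all genes tested were, and in 48 on IgG, where 21.2% were. On both coatings this held for 44 genes, against 12.6% of all genes tested. Both NKO libraries were above both NT libraries in 2 genes, ZDHHC2 and ESCO2, on DLL4 (37.1% of all genes tested) and again on IgG (30.9%). By limma, 35 genes passed as lower on DLL4 (9.31% of all genes tested) and 32 on IgG (5.74%), 25 of them on both, and 0 as higher on either. These counts restate how the genes were chosen. Without the NT library on DLL4 numbered 2 the DLL4 count was 23, and the IgG count was 18, 16 or 19 without the NT libraries on IgG numbered 2 or 3 or the NKO library on IgG numbered 2.

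Single libraries gave the same picture. As a median over the 58 genes, the NKO libraries were at 68.3% and 69.5% of the NT mean on DLL4 and at 75.4% and 67.2% on IgG. The TKO libraries were at 103.1% and 97.5% on DLL4 and at 98.7% and 106.3% on IgG. The NT libraries, each set against the other library of its group, were at 110.2% and 90.6% on DLL4 and 96.2% and 103.3% on IgG. No NKO library came within the range of the NT or TKO libraries in this median. The NKO libraries that chose the genes also enter the contrast with the TKO line, so its values are a description too. Both NKO libraries were below both TKO libraries in 49 genes on DLL4 (30.7% of all genes tested) and in 49 on IgG (24.6%). For 37 genes they were below all NT and TKO libraries on both coatings, as for 4.77% of all genes tested. The median NKO level was 69.7% of TKO on DLL4 and 68.8% on IgG.

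**Figure D1:**
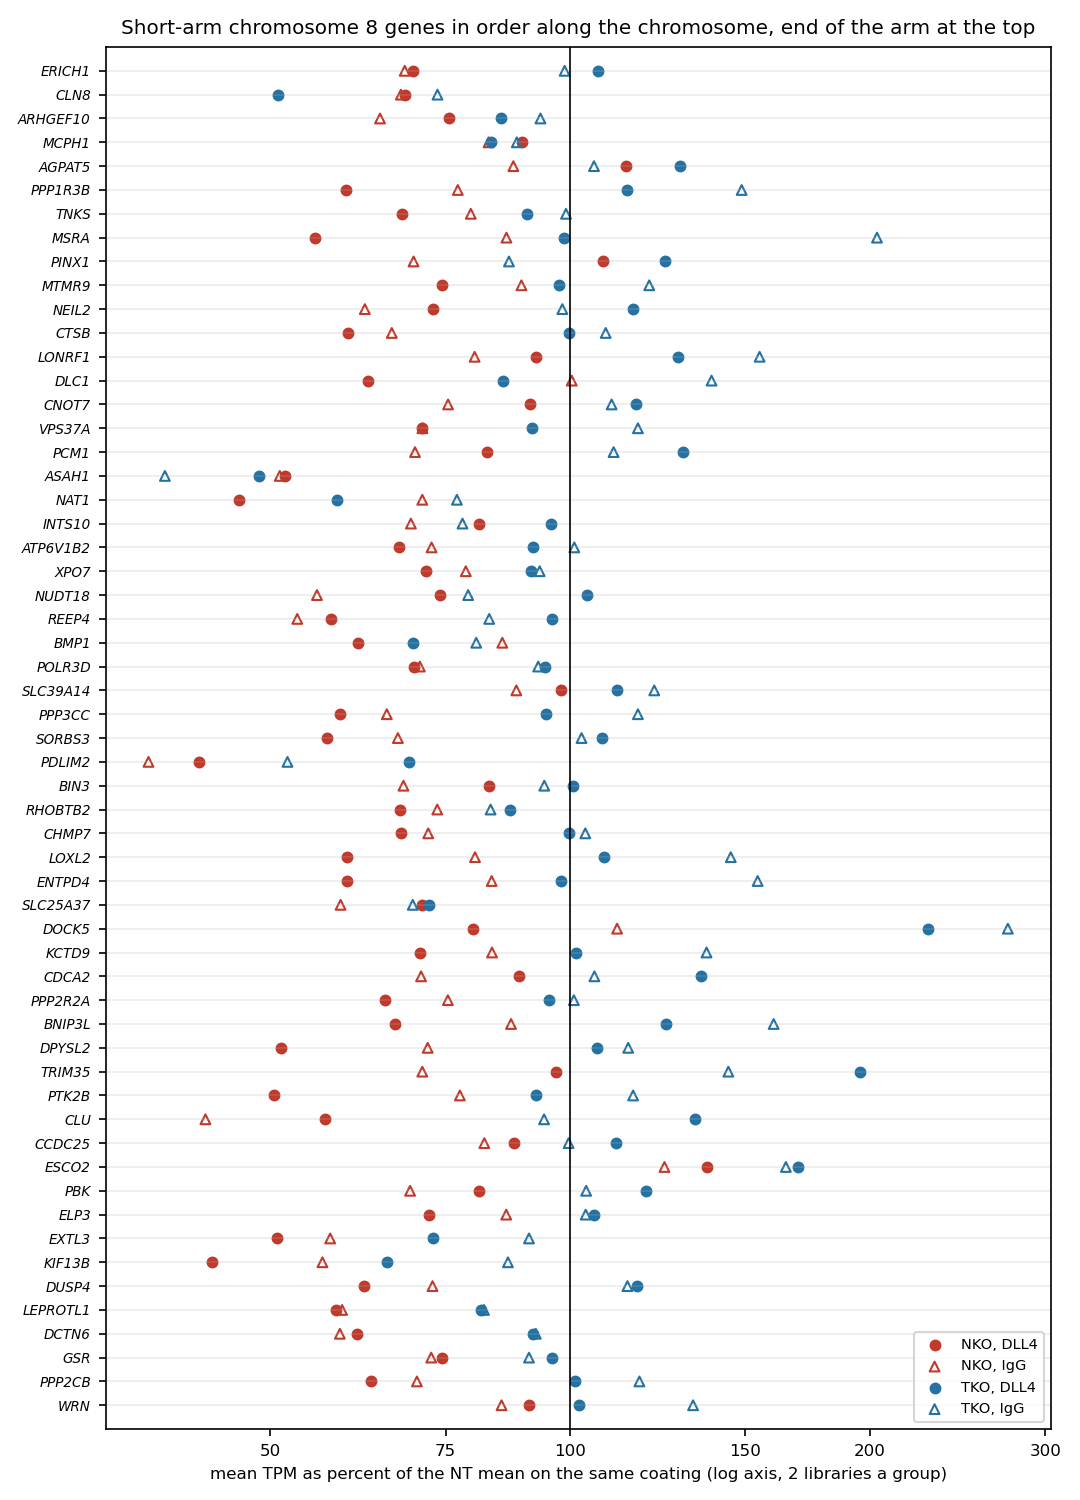
Mean TPM of each gene in NKO and TKO cells as a percent of the NT mean on the same coating (log axis, 2 libraries a group), for 57 of the 58 genes in their order along the chromosome; ZDHHC2 is left off because NT was near 0. Most NKO points lie below 100%, around medians of 69.0% on DLL4 and 72.0% on IgG, while TKO points lie on both sides of 100%.

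The 4 members that act in the extracellular matrix or on glycans were lower in both NKO libraries than in both NT libraries on each coating. Counts of this kind, here and in the groups below, restate how the genes were chosen. On both coatings the pattern held for 44 of the 58 genes and for 12.6% of all genes tested. It held for 49 and 25.0% on DLL4, and for 48 and 21.2% on IgG. LOXL2, a lysyl oxidase that cross-links collagen (23297189 to 23425328, minus strand, GRCh38), had 538 and 553 TPM on DLL4 and 499.5 and 480.3 TPM on IgG in NKO cells. In TKO cells LOXL2 had 1056 and 923 TPM on DLL4 and 872 and 897 TPM on IgG, and in NT cells 958 and 869.5 TPM on DLL4 and 582 and 639 TPM on IgG. The NKO libraries lay below all others, at 59.7% of the NT mean on DLL4 and 80.3% on IgG. BMP1, the procollagen C-proteinase, had 39.8 and 40.2 TPM on DLL4 and 35.7 and 40.2 TPM on IgG in NKO cells. In TKO cells BMP1 had 46.5 and 44.1 TPM on DLL4 and 34.9 and 36.6 TPM on IgG, and in NT cells 69.2 and 61.2 TPM on DLL4 and 44.1 and 44.6 TPM on IgG. It was the member of this group nearest to NT on IgG, at 61.3% of the NT mean on DLL4 and 85.5% on IgG, and the TKO libraries on IgG lay within or below the NKO range. CLU, a secreted chaperone (clusterin), had 106 and 103 TPM on DLL4 and 114 and 102 TPM on IgG in NKO cells. In TKO cells CLU had 272 and 220.4 TPM on DLL4 and 269 and 204 TPM on IgG, and in NT cells 195 and 174 TPM on DLL4 and 225 and 278 TPM on IgG. It was at 56.8% of the NT mean on DLL4 and 43.1% on IgG, with log2 differences (of mean log2(TPM + 1)) of -0.81 ± 0.15 (SE) on DLL4 and -1.20 ± 0.15 on IgG. EXTL3, which starts heparan sulfate chains, had 16.8 and 19.2 TPM on DLL4 and 21.2 and 17.4 TPM on IgG in NKO cells. In TKO cells EXTL3 had 25.4 and 26.2 TPM on DLL4 and 28.5 and 32.8 TPM on IgG, and in NT cells 37.5 and 33.3 TPM on DLL4 and 31.0 and 36.3 TPM on IgG. It was at 50.8% of the NT mean on DLL4 and 57.5% on IgG with no overlap between NKO and NT. Some neighbouring members overlap in the annotation, LOXL2 with ENTPD4 and LEPROTL1 with DCTN6 on the same strand, and CNOT7 with VPS37A, CCDC25 with ESCO2 and ESCO2 with PBK on opposite strands. Whether the quantification used strand is not given in the sources used here, so values of these pairs may share reads.

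All 8 members of lysosomes, endosomes and vesicle traffic were lower in both NKO libraries on both coatings, with medians of 63.6% of NT on DLL4 and 69.4% on IgG. CTSB, the lysosomal protease cathepsin B (11842524 to 11869448, minus strand) and the most abundant of the 58 genes at a mean of 799 TPM, had 585 and 583 TPM on DLL4 and 561 and 531 TPM on IgG in NKO cells. In TKO cells CTSB had 1014 and 929 TPM on DLL4 and 898 and 892 TPM on IgG, and in NT cells 985 and 963 TPM on DLL4 and 808 and 840.0 TPM on IgG. Every NKO library was below every TKO and NT library, at 59.9% of the NT mean on DLL4 and 66.2% on IgG. ASAH1, acid ceramidase (18055992 to 18084998, minus strand), had 19.99 and 22.6 TPM on DLL4 and 18.1 and 15.2 TPM on IgG in NKO cells. In TKO cells ASAH1 had 20.2 and 19.96 TPM on DLL4 and 11.9 and 13.7 TPM on IgG, and in NT cells 42.6 and 39.7 TPM on DLL4 and 32.2 and 33.1 TPM on IgG. It was low in both targeted lines: NKO cells were at 51.8% of the NT mean on DLL4 and 51.1% on IgG and TKO cells at 48.8% and 39.2%. LEPROTL1, a membrane protein of endosomes, had 44.8 and 42.0 TPM on DLL4 and 37.8 and 45.9 TPM on IgG in NKO cells. In TKO cells LEPROTL1 had 59.95 and 61.3 TPM on DLL4 and 52.8 and 63.4 TPM on IgG, and in NT cells 76.7 and 72.3 TPM on DLL4 and 68.7 and 73.0 TPM on IgG. Its NKO libraries did not reach the lowest TKO or NT library, at 58.3% of the NT mean on DLL4 and 59.0% on IgG. CLN8, an endoplasmic reticulum protein that helps load lysosomal enzymes for export, had 9.39 and 9.17 TPM on DLL4 and 9.44 and 8.37 TPM on IgG in NKO cells. In TKO cells CLN8 had 6.89 and 6.93 TPM on DLL4 and 7.95 and 11.4 TPM on IgG, and in NT cells 14.8 and 12.3 TPM on DLL4 and 11.5 and 14.8 TPM on IgG. Here too the TKO libraries were below NT on DLL4, and NKO was at 68.3% of the NT mean on DLL4 and 67.7% on IgG. ENTPD4, a nucleotide diphosphatase of the Golgi and lysosome, had 15.7 and 18.6 TPM on DLL4 and 16.8 and 16.1 TPM on IgG in NKO cells. In TKO cells ENTPD4 had 30.9 and 25.4 TPM on DLL4 and 27.4 and 33.5 TPM on IgG, and in NT cells 31.8 and 25.7 TPM on DLL4 and 20.2 and 19.2 TPM on IgG. It was at 59.7% of the NT mean on DLL4 and 83.4% on IgG. The other members of the group, VPS37A (an ESCRT-I subunit), ATP6V1B2 (a subunit of the vacuolar proton pump) and CHMP7 (an ESCRT-III protein of the nuclear envelope), were at 71.0%, 67.3% and 67.7% on DLL4 and 71.1%, 72.6% and 72.1% on IgG.

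Among the 9 regulators of the cytoskeleton, adhesion and small GTPases, medians were 62.7% of NT on DLL4 and 67.2% on IgG, and 7 were lower in both NKO libraries on both coatings. PDLIM2, a PDZ and LIM protein bound to actin (22578279 to 22598025, plus strand), had 52.4 and 60.6 TPM on DLL4 and 42.8 and 48.7 TPM on IgG in NKO cells. In TKO cells PDLIM2 had 90.2 and 93.7 TPM on DLL4 and 61.0 and 65.0 TPM on IgG, and in NT cells 133 and 134 TPM on DLL4 and 115 and 127 TPM on IgG. It was the member lowest in NKO cells relative to NT and the only one under 50% on both coatings, at 42.4% of the NT mean on DLL4 and 37.8% on IgG, with log2 differences of -1.23 ± 0.09 (SE) on DLL4 and -1.39 ± 0.09 on IgG. TKO libraries lay between the NKO and NT libraries. KIF13B, a kinesin, had 7.61 and 8.67 TPM on DLL4 and 9.01 and 6.97 TPM on IgG in NKO cells. In TKO cells KIF13B had 12.8 and 11.5 TPM on DLL4 and 11.1 and 13.5 TPM on IgG, and in NT cells 19.9 and 17.2 TPM on DLL4 and 13.2 and 15.1 TPM on IgG. It was at 43.8% of the NT mean on DLL4 and 56.4% on IgG and also had its TKO libraries below both NT libraries on DLL4. SORBS3, the adhesion protein vinexin, had 253 and 280.2 TPM on DLL4 and 266 and 301 TPM on IgG in NKO cells. In TKO cells SORBS3 had 506 and 502 TPM on DLL4 and 413 and 453 TPM on IgG, and in NT cells 468 and 467 TPM on DLL4 and 393 and 451 TPM on IgG. The NKO libraries stood apart from the rest at 57.0% of the NT mean on DLL4 and 67.2% on IgG. BIN3, a BAR domain protein, had 32.9 and 25.3 TPM on DLL4 and 35.9 and 32.6 TPM on IgG in NKO cells. In TKO cells BIN3 had 35.6 and 35.0 TPM on DLL4 and 47.9 and 47.0 TPM on IgG, and in NT cells 36.7 and 33.5 TPM on DLL4 and 51.6 and 49.1 TPM on IgG. It was at 82.9% of the NT mean on DLL4 and 68.0% on IgG. DCTN6 (a dynactin subunit), ARHGEF10 (a guanine nucleotide exchange factor) and RHOBTB2 were at 61.1%, 75.7% and 67.5% on DLL4 and 58.8%, 64.5% and 73.6% on IgG.

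The remaining members of that group separated on DLL4 alone. DOCK5, an exchange factor for Rac, had 8.34 and 8.44 TPM on DLL4 and 10.9 and 9.10 TPM on IgG in NKO cells. In TKO cells DOCK5 had 24.7 and 23.3 TPM on DLL4 and 23.4 and 25.9 TPM on IgG, and in NT cells 11.8 and 9.17 TPM on DLL4 and 8.07 and 9.84 TPM on IgG. NKO overlapped NT on IgG, at 79.8% of the NT mean on DLL4 and 112% on IgG, while TKO libraries were above all others. DLC1, a GTPase-activating protein, had 8.55 and 8.02 TPM on DLL4 and 10.1 and 4.38 TPM on IgG in NKO cells. In TKO cells DLC1 had 10.8 and 11.8 TPM on DLL4 and 6.76 and 13.2 TPM on IgG, and in NT cells 14.5 and 11.9 TPM on DLL4 and 6.28 and 8.09 TPM on IgG. The NKO libraries on IgG spanned those of NT, and the means were at 62.7% of the NT mean on DLL4 and 100.4% on IgG.

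The 8 phosphatases, kinases and signalling proteins were lower in both NKO libraries on DLL4, with a median of 60.8% of NT, and 6 of them also on IgG, with a median of 74.1%. PPP2CB, a catalytic subunit of protein phosphatase 2A, had 126 and 111 TPM on DLL4 and 128 and 113 TPM on IgG in NKO cells. In TKO cells PPP2CB had 196 and 183 TPM on DLL4 and 207 and 198 TPM on IgG, and in NT cells 194 and 181 TPM on DLL4 and 179.9 and 165 TPM on IgG. NKO libraries were the lowest throughout, at 63.1% of the NT mean on DLL4 and 70.2% on IgG, though this gene has a close paralog in PPP2CA on chromosome 5. PPP2R2A, a regulatory B subunit of the same enzyme, had 69.0 and 69.3 TPM on DLL4 and 75.9 and 63.4 TPM on IgG in NKO cells. In TKO cells PPP2R2A had 102 and 99.9 TPM on DLL4 and 89.0 and 97.5 TPM on IgG, and in NT cells 115 and 97.0 TPM on DLL4 and 91.7 and 93.0 TPM on IgG. It was at 65.2% of the NT mean on DLL4 and 75.4% on IgG. PPP1R3B, which targets protein phosphatase 1 to glycogen, had 9.79 and 8.51 TPM on DLL4 and 7.39 and 5.48 TPM on IgG in NKO cells. In TKO cells PPP1R3B had 17.2 and 17.9 TPM on DLL4 and 11.2 and 13.6 TPM on IgG, and in NT cells 15.4 and 15.4 TPM on DLL4 and 8.04 and 8.64 TPM on IgG. It was at 59.5% of the NT mean on DLL4 and 77.2% on IgG, and DLL4 libraries were above IgG libraries in all 3 lines. PPP3CC (a calcineurin catalytic subunit), DUSP4 (a MAP kinase phosphatase) and DPYSL2 (a tubulin-binding protein) were at 58.8%, 62.1% and 51.2% on DLL4 and 65.5%, 72.8% and 72.0% on IgG.

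On IgG the other two members of this group overlapped. PTK2B, a focal adhesion kinase relative, had 1.06 and 1.01 TPM on DLL4 and 2.06 and 0.942 TPM on IgG in NKO cells. In TKO cells PTK2B had 1.52 and 2.26 TPM on DLL4 and 2.26 and 2.22 TPM on IgG, and in NT cells 1.73 and 2.36 TPM on DLL4 and 1.76 and 2.11 TPM on IgG. It was without overlap on DLL4, and on IgG the higher NKO library lay between the NT libraries. MTMR9, an inactive myotubularin, had 5.001 and 5.16 TPM on DLL4 and 6.11 and 4.10 TPM on IgG in NKO cells. In TKO cells MTMR9 had 6.63 and 6.66 TPM on DLL4 and 6.17 and 7.55 TPM on IgG, and in NT cells 7.34 and 6.30 TPM on DLL4 and 5.80 and 5.62 TPM on IgG. On DLL4 they were at 50.5% and 74.5% of NT, and on IgG at 77.5% and 89.4%.

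Of the 5 members grouped under RNA and transcription, 4 were lower in both NKO libraries on both coatings. CNOT7, a deadenylase of the CCR4-NOT complex, had 68.9 and 72.5 TPM on DLL4 and 64.7 and 62.3 TPM on IgG in NKO cells. In TKO cells CNOT7 had 91.1 and 89.5 TPM on DLL4 and 82.4 and 103 TPM on IgG, and in NT cells 83.0 and 72.1 TPM on DLL4 and 84.8 and 83.6 TPM on IgG. On DLL4 1 NKO library was above the lower NT library, and the means were at 91.2% of the NT mean on DLL4 and 75.4% on IgG. INTS10, an Integrator subunit, had 33.7 and 33.3 TPM on DLL4 and 33.3 and 29.5 TPM on IgG in NKO cells. In TKO cells INTS10 had 40.0 and 39.1 TPM on DLL4 and 36.1 and 34.7 TPM on IgG, and in NT cells 44.6 and 38.1 TPM on DLL4 and 47.7 and 43.0 TPM on IgG. It was at 81.0% of the NT mean on DLL4 and 69.2% on IgG. POLR3D (RNA polymerase III), XPO7 (a nuclear export receptor) and ELP3 (the acetyltransferase of Elongator) were at 69.8%, 71.7% and 72.1% on DLL4 and 70.7%, 78.6% and 86.3% on IgG.

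The 10 members of cell division and genome maintenance were less uniform, with medians of 85.7% of NT on DLL4 and 70.4% on IgG. REEP4, which keeps endoplasmic reticulum off mitotic chromosomes, had 56.1 and 59.2 TPM on DLL4 and 57.1 and 63.9 TPM on IgG in NKO cells. In TKO cells REEP4 had 95.6 and 96.3 TPM on DLL4 and 98.3 and 90.2 TPM on IgG, and in NT cells 104 and 95.9 TPM on DLL4 and 109 and 118 TPM on IgG. It was at 57.6% of the NT mean on DLL4 and 53.2% on IgG, the lowest of the group, with every NKO library below all TKO and NT libraries. ESCO2, a cohesin acetyltransferase, had 7.36 and 9.93 TPM on DLL4 and 12.1 and 10.01 TPM on IgG in NKO cells. In TKO cells ESCO2 had 12.4 and 8.87 TPM on DLL4 and 10.5 and 18.8 TPM on IgG, and in NT cells 6.22 and 6.35 TPM on DLL4 and 9.87 and 7.92 TPM on IgG. It was the opposite case: NKO libraries were all above those of NT on both coatings, at 137% of the NT mean on DLL4 and 124% on IgG. CDCA2, which brings protein phosphatase 1 to mitotic chromatin, had 12.8 and 14.3 TPM on DLL4 and 13.4 and 13.2 TPM on IgG in NKO cells. In TKO cells CDCA2 had 20.6 and 20.7 TPM on DLL4 and 19.7 and 20.1 TPM on IgG, and in NT cells 15.7 and 14.8 TPM on DLL4 and 19.7 and 17.9 TPM on IgG. It was at 88.8% of the NT mean on DLL4 and 70.9% on IgG.

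PINX1, a telomerase inhibitor, had 36.5 and 31.8 TPM on DLL4 and 36.7 and 31.0 TPM on IgG in NKO cells. In TKO cells PINX1 had 42.0 and 37.0 TPM on DLL4 and 43.0 and 41.5 TPM on IgG, and in NT cells 32.5 and 30.9 TPM on DLL4 and 48.5 and 48.7 TPM on IgG. Its coatings differed: NKO overlapped NT on DLL4 and was lower on IgG, at 108% of the NT mean on DLL4 and 69.7% on IgG, and its symbol stands for more than 1 entry in the annotation. WRN, a DNA helicase, had 8.09 and 6.38 TPM on DLL4 and 6.57 and 6.08 TPM on IgG in NKO cells. In TKO cells WRN had 7.70 and 8.54 TPM on DLL4 and 10.2 and 9.47 TPM on IgG, and in NT cells 7.93 and 7.99 TPM on DLL4 and 8.33 and 6.48 TPM on IgG. The NKO and NT libraries overlapped on both coatings, at 90.9% of the NT mean on DLL4 and 85.4% on IgG. MCPH1, a regulator of chromosome condensation, had 3.99 and 4.13 TPM on DLL4 and 4.24 and 4.20 TPM on IgG in NKO cells. In TKO cells MCPH1 had 4.03 and 3.53 TPM on DLL4 and 4.52 and 4.49 TPM on IgG, and in NT cells 4.31 and 4.77 TPM on DLL4 and 4.69 and 5.496 TPM on IgG. Its libraries did not overlap, and the means were at 89.4% of the NT mean on DLL4 and 82.8% on IgG. NEIL2 (a DNA glycosylase), TNKS (tankyrase), PCM1 (of centriolar satellites) and PBK (a mitotic kinase) were at 72.8%, 67.9%, 82.5% and 81.0% on DLL4 and 62.2%, 79.5%, 69.9% and 69.1% on IgG.

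The 8 members of metabolism, redox and transport were intermediate, with medians of 72.5% of NT on DLL4 and 79.5% on IgG. NAT1, an arylamine N-acetyltransferase, had 4.82 and 5.12 TPM on DLL4 and 6.49 and 3.89 TPM on IgG in NKO cells. In TKO cells NAT1 had 5.63 and 6.82 TPM on DLL4 and 4.92 and 6.33 TPM on IgG, and in NT cells 9.81 and 11.5 TPM on DLL4 and 7.46 and 7.14 TPM on IgG. It was at 46.6% of the NT mean on DLL4 and 71.1% on IgG, without overlap between NKO and NT. SLC25A37, the mitochondrial iron carrier mitoferrin-1, had 40.6 and 50.1 TPM on DLL4 and 43.8 and 47.2 TPM on IgG in NKO cells. In TKO cells SLC25A37 had 44.03 and 48.2 TPM on DLL4 and 51.1 and 56.5 TPM on IgG, and in NT cells 64.7 and 63.1 TPM on DLL4 and 78.0 and 76.6 TPM on IgG. Both targeted lines were below NT, with NKO at 71.0% of the NT mean on DLL4 and 58.9% on IgG. BNIP3L, a mitophagy receptor, had 15.03 and 19.7 TPM on DLL4 and 15.6 and 13.0 TPM on IgG in NKO cells. In TKO cells BNIP3L had 31.6 and 33.5 TPM on DLL4 and 22.6 and 29.7 TPM on IgG, and in NT cells 25.3 and 26.9 TPM on DLL4 and 15.7 and 17.0 TPM on IgG. Both NKO libraries were below both NT libraries on each coating, at 66.7% of the NT mean on DLL4 and 87.3% on IgG.

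AGPAT5, an acyltransferase of phospholipid synthesis, had 15.4 and 13.5 TPM on DLL4 and 16.5 and 12.8 TPM on IgG in NKO cells. In TKO cells AGPAT5 had 17.6 and 15.2 TPM on DLL4 and 15.7 and 19.6 TPM on IgG, and in NT cells 13.6 and 11.8 TPM on DLL4 and 16.9 and 16.5 TPM on IgG. NKO and NT overlapped on DLL4 and nearly touched on IgG, at 114% of the NT mean on DLL4 and 87.7% on IgG. SLC39A14, an importer of zinc and manganese, had 28.3 and 25.4 TPM on DLL4 and 36.8 and 27.2 TPM on IgG in NKO cells. In TKO cells SLC39A14 had 32.1 and 29.1 TPM on DLL4 and 39.6 and 48.5 TPM on IgG, and in NT cells 28.7 and 26.2 TPM on DLL4 and 35.3 and 37.1 TPM on IgG. It overlapped on both coatings, at 97.9% of the NT mean on DLL4 and 88.3% on IgG. MSRA, a methionine sulfoxide reductase, had 0.916 and 1.95 TPM on DLL4 and 1.31 and 2.28 TPM on IgG in NKO cells. In TKO cells MSRA had 3.20 and 1.88 TPM on DLL4 and 4.15 and 4.29 TPM on IgG, and in NT cells 2.02 and 3.14 TPM on DLL4 and 1.29 and 2.87 TPM on IgG. Libraries of a group differed by more than the means of NKO and NT did on IgG, where it overlapped, and the means were at 55.5% of the NT mean on DLL4 and 86.3% on IgG. NUDT18 (a hydrolase of oxidised nucleotides) and GSR (glutathione reductase) were at 74.0% and 74.4% on DLL4 and 55.7% and 72.6% on IgG.

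The 4 members of ubiquitin and protein modification followed the rest least, with medians of 94.6% of NT on DLL4 and 81.9% on IgG. These medians rank ZDHHC2 as the highest ratio, although NT was near 0 for it. ZDHHC2, a palmitoyltransferase (17156029 to 17224799, plus strand), had 0.365 and 1.33 TPM on DLL4 and 0.519 and 1.38 TPM on IgG in NKO cells. In TKO cells ZDHHC2 had 13.7 and 16.2 TPM on DLL4 and 18.3 and 22.6 TPM on IgG, and in NT cells 0.00950 and 0 TPM on DLL4 and 0.0175 and 0 TPM on IgG. It was near 0 in NT cells, with 1 of 2 libraries listed at 0 on each coating, low in NKO cells and high in TKO cells, so no ratio to NT is given. TRIM35, a ubiquitin ligase, had 10.7 and 11.96 TPM on DLL4 and 14.2 and 13.8 TPM on IgG in NKO cells. In TKO cells TRIM35 had 23.3 and 22.4 TPM on DLL4 and 25.6 and 31.1 TPM on IgG, and in NT cells 12.5 and 10.9 TPM on DLL4 and 19.5 and 19.8 TPM on IgG. NKO overlapped NT on DLL4 and not on IgG, at 96.8% of the NT mean on DLL4 and 71.1% on IgG, while TKO libraries were the highest. KCTD9, an adaptor of cullin 3 ligases, had 28.8 and 26.6 TPM on DLL4 and 29.4 and 23.6 TPM on IgG in NKO cells. In TKO cells KCTD9 had 42.5 and 36.9 TPM on DLL4 and 39.8 and 47.2 TPM on IgG, and in NT cells 42.0 and 36.4 TPM on DLL4 and 31.9 and 31.6 TPM on IgG. It was at 70.7% of the NT mean on DLL4 and 83.5% on IgG and was the 1 member of this group without overlap on both coatings. LONRF1, a RING finger protein, had 1.64 and 0.999 TPM on DLL4 and 1.14 and 1.71 TPM on IgG in NKO cells. In TKO cells LONRF1 had 1.54 and 2.12 TPM on DLL4 and 1.36 and 4.15 TPM on IgG, and in NT cells 1.64 and 1.21 TPM on DLL4 and 1.58 and 1.97 TPM on IgG. Its libraries overlapped on both coatings, at 92.4% of the NT mean on DLL4 and 80.2% on IgG. ERICH1, whose role is little known, and CCDC25, reported as a membrane sensor of extracellular DNA, were at 69.6% and 87.8% of NT on DLL4 and 68.2% and 82.0% on IgG.

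**Figure D2:**
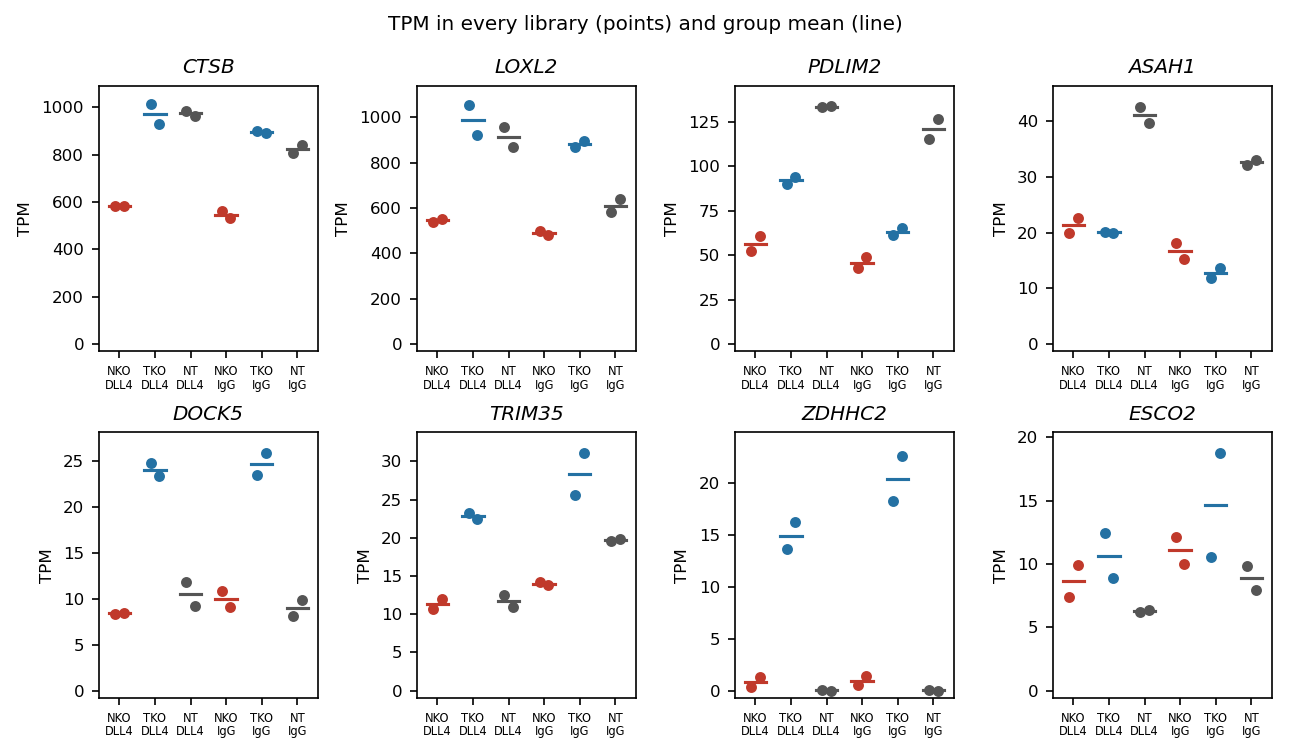
TPM of 8 genes in every library (points, with the group mean as a line), with NKO, TKO and NT groups from left to right. CTSB, LOXL2 and PDLIM2 are lowest in NKO libraries, ASAH1 is low in NKO and TKO libraries, DOCK5 and TRIM35 are highest in TKO libraries, ZDHHC2 is near 0 in NT libraries, and ESCO2 is above NT in NKO libraries.

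The listed symbols that missed the threshold were at low levels. TUSC3, a subunit of the oligosaccharyltransferase, was listed at 0 and 0 TPM in NKO cells on DLL4, against 1.62 and 1.15 TPM in NT cells. On IgG it was at 0.340 and 0.288 TPM in NKO cells, against 0.666 and 1.77 TPM in NT cells. TKO libraries held 0.0549 and 0.0602 TPM on DLL4 and 0.343 and 0 TPM on IgG. CSGALNACT1, of chondroitin sulfate synthesis, was at or below 0.690 TPM in all 12 libraries.

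Across the 58 genes, the NKO change on DLL4 and the NKO change on IgG, which share no library, had Pearson's r = 0.69 and a Spearman rank correlation of 0.48. Without PDLIM2 and ZDHHC2, the genes at the ends of the range, chosen after their values were seen, they were 0.52 and 0.43 over 56 genes. The mean change correlated with the log2 mean level at r = -0.42, with transcript length at r = 0.22, with transcript GC content at r = -0.39 and with position along the arm at r = -0.17. These describe genes that share libraries and are not independent, and the level is measured in the same libraries as the change. The SD of the log2 difference over the 58 genes was 0.36 on DLL4 and 0.34 on IgG, or 0.32 and 0.29 without ZDHHC2. Over all genes tested it was 0.52 and 0.47. Members in 6 consecutive sets along the arm had medians of 72.1%, 71.9%, 68.6%, 69.2%, 69.4% and 61.6% of NT on DLL4 and 78.3%, 71.1%, 70.0%, 72.8%, 76.5% and 64.6% on IgG, so the lowest set was that nearest the centromere, EXTL3 to WRN.

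The lower level was not particular to the listed genes or to the stretch they span. Of 144 protein-coding genes of the arm that were tested, 42 unlisted ones between ERICH1 and WRN were at medians of 59.8% of NT in NKO cells on DLL4 and 71.6% on IgG. The 42 genes between WRN and the centromere were at 73.2% and 73.3%. On the long arm, the 44 genes that start below 70 Mb were at 74.8% and 74.9%, and the 226 genes beyond were at 106.0% and 106.0%. The 70 Mb boundary was set after the values were seen. In bins of 5 Mb, every bin from the end of the short arm to 70 Mb had a median of 49.2% to 84.7% on DLL4 and 61.9% to 80.6% on IgG. The next bin, 70 to 75 Mb, was at 109.9% and 103.8%. Past 70 Mb, the bins of at least 5 genes had medians of 73.2% (130 to 135 Mb, 9 genes) to 117.4% on DLL4 and of 88.5% (75 to 80 Mb, 5 genes) to 120.2% on IgG, where the bin from 130 to 135 Mb was at 108.4%. In TKO cells the groups before and after 70 Mb were at 95.7% and 100.1% on DLL4 and 101.7% and 99.0% on IgG.

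**Figure D3:**
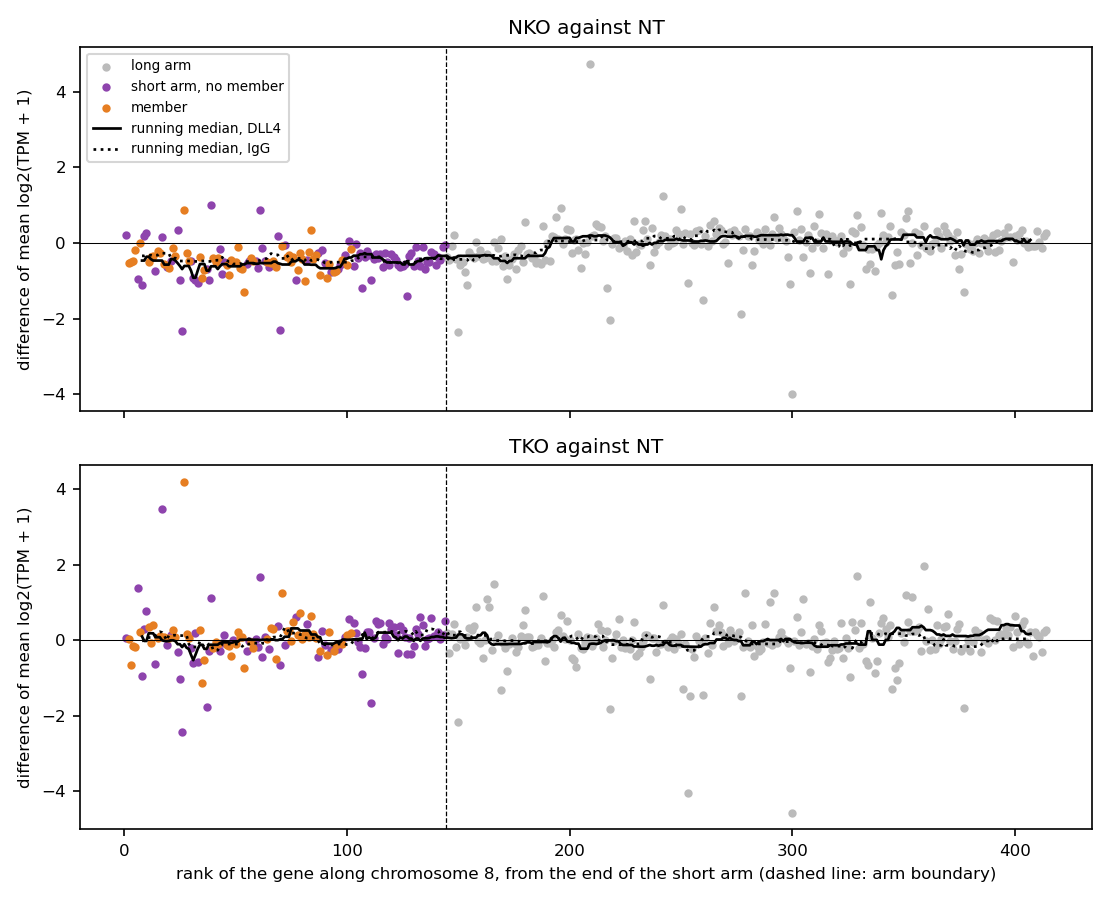
Difference of mean log2(TPM + 1) from NT for each tested protein-coding gene of chromosome 8, by rank from the end of the short arm, in NKO cells (upper panel) and TKO cells (lower panel). Points are the mean of both coatings, lines are running medians over 15 genes for DLL4 and IgG, and the dashed line is the arm boundary; the NKO lines lie below 0 over the short arm and the start of the long arm and near 0 after that.

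Genes at the boundary were mixed. ARFGEF1, below it, was at 70.4% and 62.7% of NT in NKO cells, and TRAM1, above it, at 92.8% and 106.9%. PREX2, at 67952118 and below the boundary, was at 1.48 and 1.20 TPM in NKO cells on DLL4 and 0.965 and 0.800 TPM on IgG, against 0.705 and 0.541 TPM on DLL4 and 0.388 and 0.465 TPM on IgG in NT cells. LACTB2, above it, was at 75.2% and 68.2%. On the short arm, unlisted genes with a mean of at least 5 TPM that went against the rest included TNFRSF10C, a decoy receptor for TRAIL, at 171% and 214% of NT, and MFHAS1, at 128% and 102%. ERI1, an RNA exonuclease, was at 189% on DLL4 and 81.6% on IgG. The lowest were MSR1, a scavenger receptor, at 14.8% and 19.3%, and STC1, the hormone stanniocalcin 1, at 18.4% and 20.4%. Both were below PDLIM2, the lowest member. In TKO cells MSR1 was also low, at 8.71% and 24.6% of NT, and STC1 was at 44.25% and 88.3%. TNFRSF10C was at 480.4% and 247.8% of NT in TKO cells, MFHAS1 at 119.2% and 135.7%, and ERI1 at 227.2% and 136.5%. ZNF596, the 1 tested gene nearer the chromosome end than ERICH1, was at 125.3% and 117.4%.

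The other chromosomes had medians within 0.14 of 0 in NKO cells. The short arm of chromosome 8 had a median log2 difference of -0.50 on DLL4 and -0.46 on IgG between NKO and NT cells, over 144 genes. The other chromosomes, with the long arm of chromosome 8, had medians of 0.01 (chromosome 19) to 0.12 (chromosome 4) on DLL4 and of -0.02 (chromosome 19) to 0.14 (chromosome 4) on IgG. In TKO cells the short arm was at 0.02 and 0.03, while chromosomes 11, 18 and 21 stood at 0.56, 0.45 and 0.47 on DLL4 and 0.52, 0.45 and 0.47 on IgG.

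**Figure D4:**
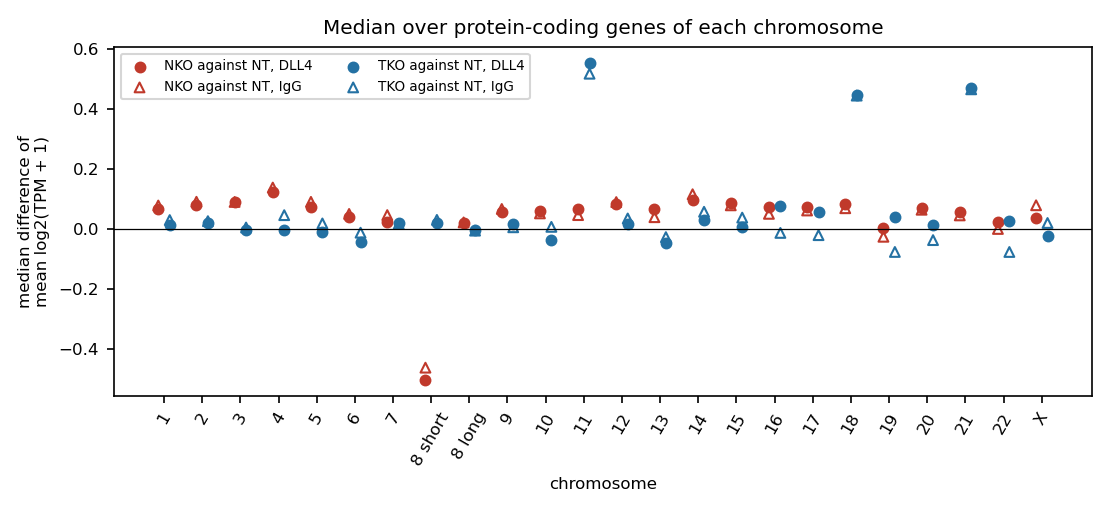
Median over tested protein-coding genes of each chromosome of the difference of mean log2(TPM + 1), for NKO and TKO against NT on both coatings. The short arm of chromosome 8 is at -0.50 and -0.46 in NKO cells, and chromosomes 11, 18 and 21 are above 0.4 in TKO cells.

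TKO against NT was tested with limma over all 13299 genes, with p-values adjusted by Benjamini-Hochberg, and the NT libraries are the same as in the contrast that chose the genes. On DLL4, 12 of 58 genes passed (26.6% of all genes tested), 8 as lower (10.5%) and 4 as higher (16.1%). On IgG 14 passed (27.6%), 6 as lower (12.4%) and 8 as higher (15.2%). Both totals were near the share of all genes tested. On either coating 19 genes passed (37.0% of all genes tested), 7 of them on both (17.3%). ASAH1 fell by 1.00 ± 0.11 (SE) on DLL4 (limma adjusted p = 7.08e-05) and by 1.29 ± 0.11 on IgG (adjusted p = 1.42e-05). PDLIM2 fell by 0.53 ± 0.09 (adjusted p = 0.00161) and by 0.93 ± 0.09 (adjusted p = 4.13e-05). BMP1 fell by 0.51 ± 0.09 on DLL4 (limma adjusted p = 0.00154) and SLC25A37 by 0.46 ± 0.11 (adjusted p = 0.00694), and both passed on IgG as well. The IgG call of BMP1, a fall of 0.31 ± 0.09 with limma adjusted p = 0.0287, was lost without any 1 of the 4 libraries compared (adjusted p = 0.0678 to 0.112), and the DLL4 call of SLC25A37 without the TKO library on DLL4 numbered 2 (adjusted p = 0.0699). The IgG count of 14 was 7 without the NT library on IgG numbered 2 and 8 without the TKO library on IgG numbered 3.

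Genes higher in TKO than in NT cells included some that were lower in NKO cells, such as LOXL2, and some that were not, such as ZDHHC2. In NKO cells DOCK5 was below NT without overlap on DLL4 alone, and TRIM35 on IgG alone. DOCK5 rose by 1.13 ± 0.14 on DLL4 (limma adjusted p = 0.000158) and 1.37 ± 0.14 on IgG (adjusted p = 5.04e-05). TRIM35 rose by 0.91 ± 0.12 on DLL4 (limma adjusted p = 0.000173) and 0.50 ± 0.12 on IgG (adjusted p = 0.00893). ZDHHC2 passed as higher on both coatings (limma adjusted p = 1.62e-06 and 9.34e-07). On IgG alone LOXL2 rose by 0.54 ± 0.08 (limma adjusted p = 0.000601), BNIP3L by 0.64 ± 0.15 (adjusted p = 0.0104), ENTPD4 by 0.60 ± 0.14 (adjusted p = 0.0107), PPP1R3B by 0.52 ± 0.14 (adjusted p = 0.0214) and KCTD9 by 0.44 ± 0.13 (adjusted p = 0.0277). CDCA2 rose by 0.41 ± 0.10 on DLL4 (limma adjusted p = 0.00923). The IgG calls of TRIM35, BNIP3L, ENTPD4, PPP1R3B and KCTD9 were lost without the TKO library on IgG numbered 3 (limma adjusted p = 0.0848 to 0.191) and, ENTPD4 excepted, without the NT library numbered 2 (0.0503 to 0.111). Those of ENTPD4, PPP1R3B and KCTD9 were also lost without the NT library numbered 3 (0.0636 to 0.11). The call of CDCA2 was lost without the NT library on DLL4 numbered 3 or either TKO library on DLL4 (0.0579 to 0.0672).

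The other members that passed were lower in TKO cells on 1 coating. On DLL4 these were CLN8 (a fall of 0.88 ± 0.17, limma adjusted p = 0.00289), NAT1 (0.69 ± 0.20, adjusted p = 0.0238), KIF13B (0.57 ± 0.15, adjusted p = 0.0161) and EXTL3 (0.44 ± 0.13, adjusted p = 0.0269), and on IgG INTS10 (0.35 ± 0.10, adjusted p = 0.0255) and REEP4 (0.27 ± 0.09, adjusted p = 0.0419). Of these, CLN8 kept its call without each library in turn. The others lost theirs: NAT1 without the NT libraries on DLL4 numbered 2 or 3 or the TKO library numbered 2 (limma adjusted p = 0.0501 to 0.162), KIF13B without the NT library numbered 2 or the TKO library numbered 3 (0.113 to 0.118), and EXTL3 without the NT library numbered 2 or either TKO library (0.0932 to 0.167). On IgG, INTS10 lost it without the NT library numbered 2 or either TKO library (0.054 to 0.157), and REEP4 without each of 9 libraries, both NT libraries on IgG among them (0.0503 to 0.223). Set side by side, the NKO and TKO log2 differences on DLL4 were -0.92 and -1.0 for ASAH1, -1.23 and -0.53 for PDLIM2, -0.28 and 1.13 for DOCK5, and -0.74 and 0.11 for LOXL2. Both share the NT libraries. Among all 58 genes, 39 in TKO cells were within 20% of NT on DLL4 and 36 on IgG, against 14 and 16 in NKO cells. The NKO counts restate how the genes were chosen. The share of all genes tested within 20% of NT was not computed, so these counts are a description only.

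The ligand response, DLL4 against IgG within a line, was not what chose the genes, although its NKO and NT libraries are those of the contrast that did. In NKO cells 0 of 58 genes passed (limma, 0.782% of all genes tested), with 5 at an unadjusted p under 0.05 (9.18% of all genes tested) and a smallest adjusted p of 0.274. In TKO cells 2 genes passed (6.51% of all genes tested), both as higher on DLL4 (4.11%) and 0 as lower (2.41%). ASAH1 rose by 0.61 ± 0.11 (limma adjusted p = 0.00894) and PDLIM2 by 0.54 ± 0.09 (adjusted p = 0.00676). In NT cells 6 were higher (7.68%) and 3 lower (8.34%) on DLL4. PPP1R3B rose by 0.81 ± 0.14 (limma adjusted p = 0.00395), BNIP3L by 0.64 ± 0.15 (adjusted p = 0.0174), LOXL2 by 0.58 ± 0.08 (adjusted p = 0.000876), BMP1 by 0.54 ± 0.09 (adjusted p = 0.00277), ENTPD4 by 0.51 ± 0.14 (adjusted p = 0.0351) and CTSB by 0.24 ± 0.06 (adjusted p = 0.0242). TRIM35 fell by 0.71 ± 0.12 (limma adjusted p = 0.00263), PINX1 by 0.60 ± 0.11 (adjusted p = 0.00395) and BIN3 by 0.51 ± 0.12 (adjusted p = 0.0135). Without 1 library, the TKO calls were lost for ASAH1 (the TKO libraries numbered 2 on IgG or 2 or 3 on DLL4, limma adjusted p = 0.0619 to 0.0727) and PDLIM2 (the TKO library on DLL4 numbered 3, 0.0755). In NT cells CTSB and BNIP3L lost theirs without any 1 of the 4 NT libraries (0.066 to 0.133), ENTPD4 without NT library 2 or 3 on IgG or 2 on DLL4 (0.0983 to 0.237), and BIN3 without NT library 2 or 3 on IgG or 3 on DLL4 (0.0574 to 0.0956). The NT count of 9 was then 5 without either NT library on IgG, and the TKO count of 2 ranged from 0 to 5 over all libraries left out in turn.

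The differences between the lines in this response did not pass for any of the 58 genes. For NKO minus NT 0 passed by limma (0.887% of all genes tested), with 6 at an unadjusted p under 0.05 (12.9%). The smallest adjusted p was 0.108, for PINX1, at 0.62 ± 0.15 (SE), and LOXL2 was at -0.43 ± 0.11 (limma adjusted p = 0.137). For TKO minus NT 0 passed (0.526%), in a background of 0.331% with a negative and 0.196% with a positive difference, with 9 at an unadjusted p under 0.05 (15.5% of all genes tested) and a smallest adjusted p of 0.12, for LOXL2. The lines are therefore not shown to differ in the response of these genes, and the median response of the 58 genes was -0.02 in NKO, -0.03 in TKO and 0.05 in NT cells.

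**Figure D5:**
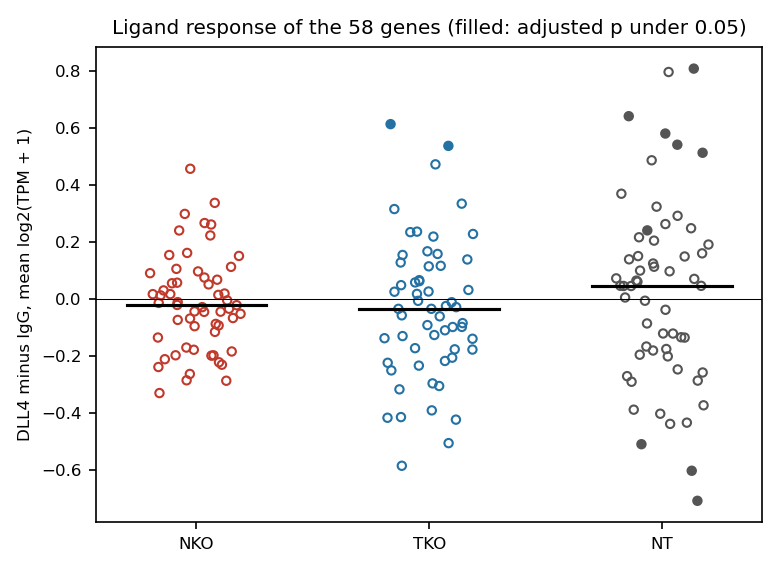
Difference of mean log2(TPM + 1) between DLL4 and IgG coatings for each of the 58 genes (points) in NKO, TKO and NT cells, with the median as a line and filled points for limma adjusted p under 0.05. The points spread over a narrower range in NKO cells, with 0 filled, than in NT cells, with 9 filled. The SD was 0.17 in NKO and 0.33 in NT cells for these genes, and it was also lower in NKO cells over all genes tested (0.27 and 0.43).

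Other subunits and relatives of the members, encoded outside the lowered stretch, had medians near NT in NKO cells. For 156 such genes, from lists of complexes and families, the medians were 103.1% of NT on DLL4 and 102.2% on IgG, with 15 lower and 12 higher by limma on DLL4, where 9.31% and 11.4% of all genes tested were. On IgG 7 were lower and 8 higher, where 5.74% and 4.92% of all genes tested were, so these counts lie near the shares over all genes. The 17 other V-ATPase subunits tested were at medians of 95.0% and 93.7%, where ATP6V1B2 was at 67.3% and 72.6%. ATP6V1H, a subunit encoded in the lowered stretch of the long arm, was at 54.4% and 62.3%. The 12 other Integrator subunits were at 111.3% and 102.2%, the 11 of dynactin at 98.9% and 99.9%, and the 19 of ESCRT complexes at 99.4% and 99.2%. The 10 of RNA polymerase III were at 122.0% and 104.3%, and the 10 of CCR4-NOT at 118.2% and 112.5%. For the 2 other lysyl oxidases tested, LOX and LOXL3, the medians were 243.8% and 255.9%. LOXL3 by itself was at 108.5% and 89.7%. The 38 paralogs of members tested outside the stretch were at medians of 98.6% and 108.5%. By limma 6 of them were lower and 4 higher on DLL4 (9.31% and 11.4% of all genes tested). On IgG 2 were lower and 4 higher (5.74% and 4.92%). The 9 other PP2A subunits tested were at medians of 106.3% and 100.8%. PPP2CA, the paralog of PPP2CB, was at 130.4% and 113.1% and passed as higher on DLL4 (log2 difference 0.38, limma adjusted p = 0.0437). PPP2R1B, a scaffold subunit of the same phosphatase on chromosome 11, was at 214% and 192% and passed as higher on both coatings (limma adjusted p = 0.00188 and 0.00735). In TKO cells PPP2R1B was at 305.9% and 255.2% of NT. PPP2R5B, a regulatory subunit of that phosphatase, was at 59.8% and 80.4% in NKO cells and passed as lower on DLL4 (limma adjusted p = 0.000839). Among 20 lysosomal enzymes, at medians of 96.1% and 97.7%, 5 were lower on DLL4 (9.31% of all genes tested) and 2 on IgG (5.74%). CTSL, cathepsin L, was at 78.5% and 70.9%, and GAA, acid alpha-glucosidase, at 55.5% and 62.1%. LOX, a relative of LOXL2 on chromosome 5, was at 2.64 and 1.26 TPM in NKO cells on DLL4 and 2.66 and 1.69 TPM on IgG. In NT cells LOX had 0.586 and 0.442 TPM on DLL4 and 0.508 and 0.523 TPM on IgG. It was far higher in TKO cells, at 21.7 and 24.6 TPM on DLL4 and 16.65 and 29.5 TPM on IgG.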

How the data were processed

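RNA abundance was measured in 12 libraries, 2 for each of 3 lines on each of 2 coatings. The values deposited by the authors are TPM per gene symbol, and per the submitters' processing notes kallisto, edgeR and the build hg38 were used, with versions, annotation and strand setting not given in the sources used here. Per the labels, mRNA came from 140 ng of total RNA. TPM keep no read number, so depth is unknown and no counting interval is given. Library sums were 974989 to 977130 TPM. Columns are numbered 2 and 3 for NT and TKO and 1 and 2 for NKO, whereas the labels use 1 and 2 throughout, so columns were assigned to groups only and are named by their own numbers.

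Positions come from GENCODE 29 (GRCh38), in which 35389 symbols were found and 198 were not. A gene was tested where 2 or more libraries reached 1 TPM, which left 13299 genes. Differences of log2(TPM + 1) were tested two-sided with limma 3.58.1 (R 4.3.3). The model held the 6 group means, used all 12 libraries and moderated variances along their trend, with 6 residual degrees of freedom. P-values were adjusted by Benjamini-Hochberg across the genes tested, and adjusted values under 0.05 were called. Fold changes on this scale understate changes of low genes. The fit was tested on simulated data. Ratios are of mean TPM. Values in every library are given for members of extreme level or ratio, with overlapping libraries, or called in a test. The alternatives were other pseudocounts, filters and scalings, no variance trend, the column number as a replicate block, the compared libraries alone, KPNA2P2 left out, and each library left out in turn. The members and lists were chosen with earlier results of these data known.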

Additional observations from a re-analysis of the deposited data

Results flagged for a closer look

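In 6 genes of the set, every DLL4 library was on one side of the IgG libraries in 1 line and on the other side in a second line, as in 10.9% of all genes tested. That pattern is itself untested. The limma tests of the difference between lines, where run, did not pass. CNOT7 (NKO minus NT, 0.27 on the log2 scale; limma adjusted p = 0.484) and NUDT18 (NKO minus NT, 0.36; adjusted p = 0.379) were higher on DLL4 in NKO cells and lower in NT cells. NUDT18 had the same pattern in TKO cells (TKO minus NT, 0.36; limma adjusted p = 0.322), as did CDCA2 (0.34; adjusted p = 0.284). PPP3CC (TKO minus NT, -0.29; limma adjusted p = 0.478) and PPP2CB (-0.22; adjusted p = 0.454) were lower on DLL4 in TKO cells and higher in NT cells. VPS37A was higher on DLL4 in NKO cells and lower in TKO cells (NKO minus TKO, 0.33), a difference that was not tested.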

How the results depend on the processing

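The settings were run on the counts of genes called, the NKO medians of the 58 genes and the calls of named genes. In those medians and calls the direction held under all settings run, with 0 reversals. The directions of single uncalled members were not followed across settings. Neither were the values by position, by chromosome or for other subunits and relatives. The median log2 difference of the 58 genes between NKO and NT cells on DLL4, -0.50 as reported, was -0.57 with median-of-ratios rescaling and -0.55 with quantile normalisation, and -0.58 to -0.43 with 1 library left out. On IgG, -0.46 as reported, it was -0.55 to -0.38 with 1 library left out. With 1 library left out, the genes called were 23 to 35 for NKO against NT on DLL4 (35 as reported), 16 to 34 on IgG (32), 8 to 14 for TKO against NT on DLL4 (12), 7 to 15 on IgG (14), 5 to 13 for DLL4 against IgG in NT cells (9), 0 to 5 in TKO cells (2) and 0 in NKO cells. The counts for both differences of responses stayed at 0. With the compared libraries alone, both IgG counts against NT were 7 and the TKO response count was 0. The response count in TKO cells was 5 when genes needed a mean of 5 TPM, 5 with quantile normalisation, 4 with median-of-ratios rescaling and 4 without KPNA2P2, and that in NT cells was 14 with quantile normalisation. Their causes were not tested.

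With the column number as a replicate block the TKO response count was 5, and of 75 calls of named genes 5 were lost. With the compared libraries alone 26 of the 75 were lost, and with no filter on low values 13. With quantile normalisation or median-of-ratios rescaling 0 were lost. What same-numbered columns share is not stated. Deviations of same-numbered NT and TKO libraries correlated at -0.04 to 0.09, and those of NKO libraries at 0.28. Over all genes tested, the block left 1965 genes called for NKO against NT on DLL4 (2758 without it) and 1091 on IgG (1418 without it). KPNA2P2 held 0.28% to 5.61% of a library. With 2 libraries a group and unknown depth, small differences and genes near 1 TPM cannot be resolved.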
